A study of Homo sapiens with 6 samples.

Results

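The BCL2 family decides whether a stressed cell opens its outer mitochondrial membrane and dies. Its messenger RNAs were followed here in MDA-MB-231 cells depleted of ING2. The family was taken as 10 genes: PMAIP1 (the protein NOXA), BMF, BCL2L11 (BIM), BBC3 (PUMA), MCL1, BCL2, BCL2L1 (BCL-X), BAX, BAK1 and BID. Members were all probe sets annotated to 1 gene only, that gene being in the family. This gave 30 probe sets for 9 of the 10 genes, out of 54613 probe sets other than controls and 19777 genes. BBC3 had no such probe set, because the 1 probe set listed for it also names 2 microRNA genes, and it is not reported further.

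MDA-MB-231 cells are a triple-negative human breast cancer line of mesenchymal character. Total RNA from 6 samples of this line was hybridised to 6 one-colour 3' expression arrays, 1 per sample. The control group of 3 samples was transfected with a non-targeting siRNA and the other group of 3 with an siRNA against ING2, a chromatin protein that reads methylated histone H3 and recruits the SIN3 histone deacetylases. No other treatment or allele is named, and the labels name 1 ING2 siRNA. RNA collection is placed at day 4 after transfection in one label field and at day 3 in another. Whether the replicates came from separate cultures is not stated, so each p-value reflects the spread among these arrays, which could be technical.

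Family members fall into groups that act on one another. BH3-only proteins, among them NOXA, BMF, BIM, PUMA and BID, sense damage, lost attachment or receptor signals. They bind the pro-survival members MCL1, BCL2 and BCL-XL and neutralise them, and some of them also engage BAX and BAK directly. BAX and BAK are the effectors that permeabilise the outer membrane and let cytochrome c out. NOXA binds MCL1 above all and promotes its turnover, and BMF is held on the cytoskeleton until detachment or stress frees it.

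The promoters of PMAIP1 and BMF are shown because these genes were called in opposite directions. The sequences are the 250 bases before each annotated start in RefSeq (GRCh38.p14), written 5′ to 3′ on the strand of the gene. Capitals mark matches, on either strand, to a GC box (GGGCGG), which the Sp family of factors binds, or to the half-site of a cyclic AMP response element (TGACG), which ATF and CREB factors bind.
PMAIP1, chr18:59899746-59899995, plus strand: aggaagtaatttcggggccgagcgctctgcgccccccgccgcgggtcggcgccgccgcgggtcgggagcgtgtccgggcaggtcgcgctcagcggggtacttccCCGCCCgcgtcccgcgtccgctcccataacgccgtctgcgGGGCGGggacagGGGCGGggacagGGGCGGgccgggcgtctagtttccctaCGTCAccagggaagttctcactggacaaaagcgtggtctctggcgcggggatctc
BMF, first of 2 listed starts, chr15:40106967-40107216, minus strand: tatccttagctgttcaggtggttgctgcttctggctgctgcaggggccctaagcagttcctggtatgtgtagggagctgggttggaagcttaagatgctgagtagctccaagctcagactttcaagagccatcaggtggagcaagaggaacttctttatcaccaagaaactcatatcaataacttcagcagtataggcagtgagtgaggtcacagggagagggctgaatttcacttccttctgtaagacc
BMF, second start, chr15:40108880-40109129, minus strand: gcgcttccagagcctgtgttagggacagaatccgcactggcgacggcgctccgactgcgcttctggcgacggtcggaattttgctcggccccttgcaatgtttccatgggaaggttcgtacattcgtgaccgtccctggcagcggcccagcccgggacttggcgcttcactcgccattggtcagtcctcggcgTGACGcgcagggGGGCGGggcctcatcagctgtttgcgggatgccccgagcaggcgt

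PMAIP1 carried 4 GC boxes and 1 response element half-site in this window, with 36 CpG dinucleotides and a GC content of 72.8%. One BMF window held 1 GC box and 1 half-site with 26 CpG dinucleotides, and the other BMF window held neither motif and no CpG. A GC box was present in 42.6% and a half-site in 21.2% of all 35116 windows of this length in the RefSeq table, whose median CpG count was 11. The E-box CACGTG (6.3% of all windows), the FOXO core TGTTTAC (3.0%) and the p53 half-site by its consensus (5.6%) were also searched for and had no match in these 3 windows. GC boxes also occurred in family genes that were not called with 1 probe set per gene. The BCL2L11 window held 3, with 34 CpG dinucleotides and a GC content of 76.8%. BID windows held from 0 to 4, the BAK1 window 2, and the BAX window 1 with 1 half-site. No GC box lay in the windows of BCL2 or BCL2L1, but the BCL2 window and the second BCL2L1 window each held 1 half-site. MCL1 had no window to search. Whether any motif relates to the direction of change was not tested. A match is a run of letters, not a measured binding site.

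ING2 itself fell in the cells given its siRNA. On 205981_s_at, the brighter of its probe sets, intensity was 1400, 1349 and 1324 units in controls 1 to 3 and 163, 188 and 161 units in ING2 siRNA samples 1 to 3, with no overlap. This is 12.5% of the control level (log2 change -2.997, SE 0.09, limma adjusted p = 1.58e-06 over all probe sets). The dimmer ING2 probe set, 213544_at, also fell, to 36.55% of control (log2 change -1.452, limma adjusted p = 0.00472 over all probe sets).

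Several facts of all 6 arrays bear on the family. The number of arrays, 3 per group, limits the precision of every value. Median intensity ran from 75.6 to 77.1 units in controls and from 78.3 to 81.4 after ING2 siRNA, without overlap (two-sided exact permutation p = 0.1). The interquartile range of log2 intensity was 3.332 to 3.377 in controls and 3.113 to 3.266 after ING2 siRNA, also without overlap (two-sided exact permutation p = 0.1). Both moved with the groups, and their part in the results below was not tested. The log2 difference between the 3' and 5' GAPDH control probe sets, a sign of RNA integrity, was 0.205 ± 0.015 (SD) in the 3 controls against 0.316 ± 0.042 in the 3 ING2 siRNA samples (two-sided exact permutation p = 0.1, the smallest possible), so it moved with the groups, and its part in the results below was not tested. The same difference for ACTB was 0.490 ± 0.110 (SD) in the 3 controls against 0.541 ± 0.0963 in the 3 ING2 siRNA samples, which overlap (two-sided exact permutation p = 0.6). Of 7 mesenchymal markers of the line none was called, VIM lying at percentile 99.6 of genes by intensity and SPARC at 26.6. Of 7 luminal breast markers none was called; KRT19 lay at percentile 97.7, GATA3 at 55.6, ERBB3 at 55.3, ESR1 at 40.9, CDH1 at 24.3, FOXA1 at 14.5 and PGR at 5.5. Their summed intensity was 5992 to 7550 units in controls and 6304 to 6562 after ING2 siRNA. Summed intensity of 6 fibroblast markers was 809 to 913 units in controls and 848 to 879 after ING2 siRNA, and that of 6 blood cell markers was 758 to 838 and 803 to 865, so both overlapped between the groups. In each of these 2 lists 1 gene of 6 rose and 1 fell, against 8.29% of all genes called in either direction. Among fibroblast markers DCN rose (log2 change 0.35, limma adjusted p = 0.0349 over genes) and LUM fell (-0.87, 0.0205). Among blood cell markers CD79A rose (0.40, 0.0329) and LYZ fell (-0.51, 0.0487). The overlap of the sums thus does not mean that no marker changed.

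In the family as measured probe set by probe set, 4 of 30 probe sets fell and 1 rose after ING2 siRNA, against 3.64% lower and 1.64% higher among all probe sets. They were both probe sets of PMAIP1 (lower), the single probe set of BMF (higher) and 2 of the 4 probe sets of BCL2L1 (lower). A change was called at a Benjamini-Hochberg adjusted p under 0.05 in limma over all 54613 probe sets, a rule that called 5.28% of them. Groups did not overlap in 13 of the 30, 6 higher and 7 lower, against 32.8% of all probe sets, 20.5% higher and 12.3% lower. Values lay below 0 in 17 of the 30 and in 37.5% of all probe sets. The median log2 change, ING2 siRNA minus control, was -0.07 over the family and 0.07 over all probe sets. These shares and medians were not matched for intensity. Most family probe sets lie in bins 8, 9 and 10 of 10 bins by rising mean intensity. The medians of all probe sets in those bins were -0.0174, -0.0715 and -0.0993, so a general fall of the family cannot be read from these figures.

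With 1 probe set per gene, the one of highest mean intensity, PMAIP1 fell and BMF rose, and 7 of the 9 genes did not pass. The same threshold over 19777 genes called 8.29% of them, 3.62% higher and 4.67% lower. Groups did not overlap in 4 of the 9 genes, 3 higher and 1 lower, against 36.5% of all genes, 22.8% higher and 13.8% lower. The BCL2L1 probe sets that fell are not the ones this choice takes, so the gene's value depends on the probe set read. The members were chosen with earlier results of these data known, so these counts are descriptions.

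**Figure D1:**
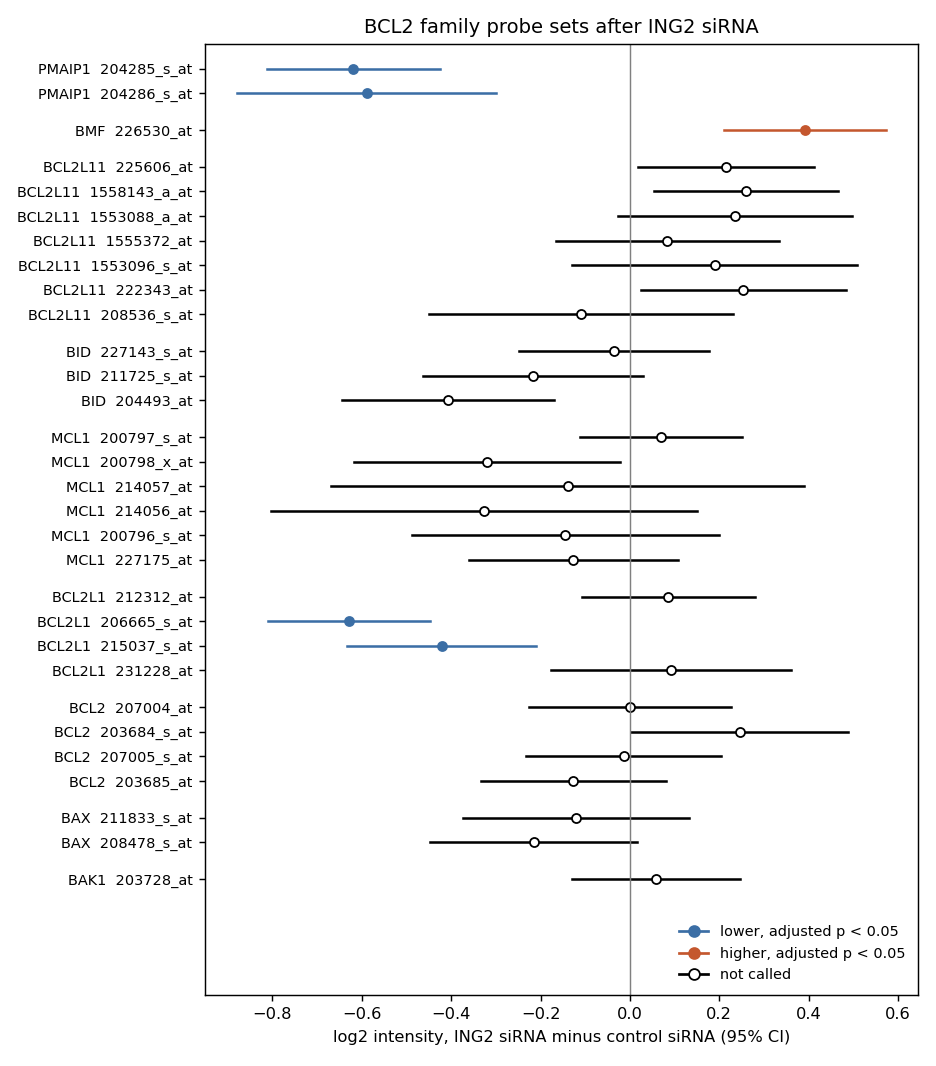
Log2 change in intensity (x axis, ING2 siRNA minus control siRNA) for each of the 30 BCL2 family probe sets, grouped by gene, with 95% confidence intervals from limma and 3 arrays per group. Filled points passed the adjusted p threshold over all probe sets: PMAIP1 (-0.62 and -0.59) and 2 BCL2L1 probe sets (-0.63 and -0.42) lower, BMF (0.39) higher, and the open points did not pass.

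Among the BH3-only genes, PMAIP1 fell, and both of its probe sets did so by a similar amount. Its brighter probe set, 204285_s_at, read 4588, 4599 and 4138 units in controls 1 to 3 and 2917, 2792 and 2957 units in ING2 siRNA samples 1 to 3. The lowest control lay above the highest ING2 siRNA sample, and the 3 ING2 siRNA samples lay closer together than the controls. The level was 65.1% of control (log2 change -0.62, SE 0.09, 95% interval -0.81 to -0.43, limma adjusted p = 0.00828 over probe sets and 0.0134 over genes). By an exact permutation test, two-sided, p was 0.1, and no smaller value is possible with 3 arrays per group.

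The other PMAIP1 probe set, 204286_s_at, read 1639, 2243 and 2113 units in controls and 1317, 1452 and 1194 units after ING2 siRNA. Control 1 was the lowest control and still lay above every ING2 siRNA sample. The level was 66.5% of control (log2 change -0.59, SE 0.13, limma adjusted p = 0.0368). The log2 changes of both PMAIP1 probe sets differed by 0.03 (95% interval -0.34 to 0.40, limma adjusted p = 0.937). After quantile normalization 204286_s_at had adjusted p = 0.0625 and after cyclic loess 0.0535 in limma, whereas 204285_s_at passed in both (0.0248 and 0.0172).

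Without single arrays the size of the PMAIP1 change was kept and its gene-level call was not always. Its limma adjusted p was 0.0802 without control 2, 0.0582 without control 3, 0.0547 without ING2 siRNA sample 1 and 0.117 without ING2 siRNA sample 3, with log2 changes from -0.67 to -0.59 when each of the 6 arrays was left out in turn. The 4 fits in which it did not pass called only 2 or 3 of all 19777 genes. Among probe sets, 204285_s_at passed in each of the 6 fits (adjusted p from 0.0147 to 0.05, the upper value being just under the threshold before rounding).

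BMF, which links cytoskeletal stress and loss of attachment to BCL2 inhibition, rose. Its probe set 226530_at read 321, 302 and 307 units in controls 1 to 3 and 407, 399.96 and 412 units in ING2 siRNA samples 1 to 3. All ING2 siRNA samples lay above all controls, and both groups were tight. The level was 131% of control (log2 change 0.39, SE 0.08, 95% interval 0.21 to 0.57, limma adjusted p = 0.0307 over probe sets and 0.0261 over genes). BMF kept this direction after median centring (0.32), quantile normalization (0.47) and cyclic loess (0.42), with adjusted p under the threshold over genes in each. Its gene-level adjusted p in limma was 0.0964 without control 2, 0.0929 without control 3, 0.0725 without ING2 siRNA sample 1 and 0.117 without ING2 siRNA sample 3, with log2 changes from 0.37 to 0.42 when each array was left out in turn. The fits in which BMF did not pass called only 2 or 3 of all 19777 genes.

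**Figure D2:**
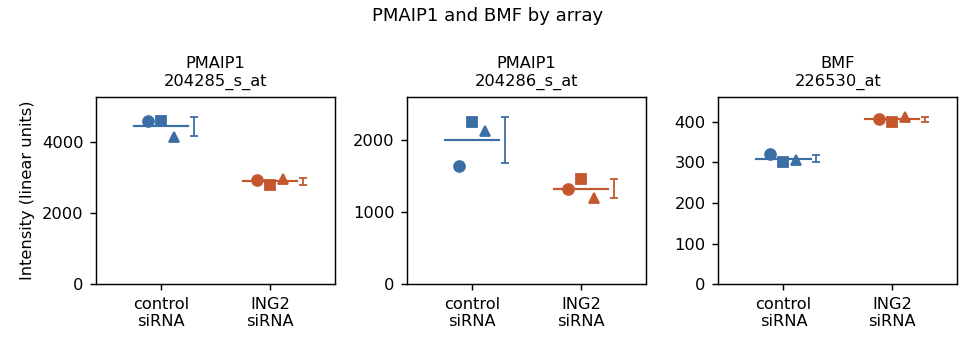
Deposited intensity on a linear scale (y axis, from 0) of both PMAIP1 probe sets and the BMF probe set on each array, with circles, squares and triangles for replicates 1, 2 and 3, horizontal lines for group means and error bars for the SD (n = 3). ING2 siRNA samples lie below every control for PMAIP1 (2792 to 2957 against 4138 to 4599 units for 204285_s_at) and above every control for BMF.

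BCL2L11 encodes BIM, a BH3-only protein that binds all pro-survival members. None of its 7 probe sets passed, and 6 of the 7 had a value above 0. The brightest, 225606_at, read 800.2, 809 and 744 units in controls and 853, 922 and 958 units after ING2 siRNA. These groups did not overlap, and the log2 change was 0.21 (95% interval 0.02 to 0.41, limma adjusted p = 0.152 over probe sets and 0.111 over genes). Probe set 1558143_a_at, at 335 to 379.9 units in controls and 402 to 456 units after ING2 siRNA, also did not overlap (0.26, adjusted p = 0.111). The other 5 ranged from -0.11 for the dim 208536_s_at to 0.25 for 222343_at. After quantile normalization the gene-level value of BCL2L11 was 0.32 with a limma adjusted p of 0.0439, the only one of the alternatives in which it passed. It was 0.30 after cyclic loess (adjusted p = 0.0587) and 0.14 after median centring (0.302), and over probe sets 225606_at had an adjusted p of 0.0684 after quantile normalization. Read by 208536_s_at, its probe set with the widest interquartile range, it was -0.11.

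BID is cut by caspase 8 and carries death receptor signals to the mitochondria. Its 3 probe sets all had values below 0 and none passed. Probe set 204493_at read 565, 611 and 609.7 units in controls and 495, 468 and 389.6 units after ING2 siRNA. The groups did not overlap, ING2 siRNA sample 3 being the lowest, and the log2 change was -0.41 (95% interval -0.64 to -0.17, limma adjusted p = 0.0561). That value passed after median centring (adjusted p = 0.0341), with a pseudocount of 16 (0.0466), without dim probe sets (0.0355), with an intensity trend (0.036) and with array weights (0.0279). It did not pass after quantile normalization (adjusted p = 0.122) or cyclic loess (0.0885), with the replicate number as a block (0.0549) or in any of the 6 fits without 1 array (0.0559 to 0.163). The brightest BID probe set, 227143_s_at, read 959, 1032 and 989 units in controls and 1004, 1037 and 872 units after ING2 siRNA, which overlap (log2 change -0.04, 95% interval -0.25 to 0.18). Its value was 0.08 after quantile normalization and 0.05 after cyclic loess. The third, 211725_s_at, had -0.22 with overlapping groups.

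Of the pro-survival genes, MCL1 encodes a short-lived guardian of BAK and is the main partner of NOXA. None of its 6 probe sets passed. The brightest, 200797_s_at, read 3524, 3597 and 3491 units in controls and 3688, 3846 and 3606 units after ING2 siRNA. The groups were adjacent without overlap, and the log2 change was 0.07 (95% interval -0.11 to 0.25, adjusted p = 0.592), with a value of -0.0012 after median centring. The other 5 probe sets had values below 0, from -0.33 to -0.13. For 200798_x_at, whose suffix marks probes that may bind other transcripts, controls read 889.7, 1002 and 837 units and ING2 siRNA samples 591, 814 and 798 units (log2 change -0.32, adjusted p = 0.155).

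Single arrays set some of the MCL1 values. Probe set 214057_at read 337, 337 and 164 units in ING2 siRNA samples 1 to 3, against 278 to 305 units in controls. In the same way 214056_at read 218, 221 and 116 units, against 217 to 229.7 units in controls. ING2 siRNA sample 3 was thus low in both, while the other arrays lay close together. Without that sample the log2 change of 214057_at was 0.21 in place of -0.14, and that of 214056_at was -0.02 in place of -0.33.

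**Figure D3:**
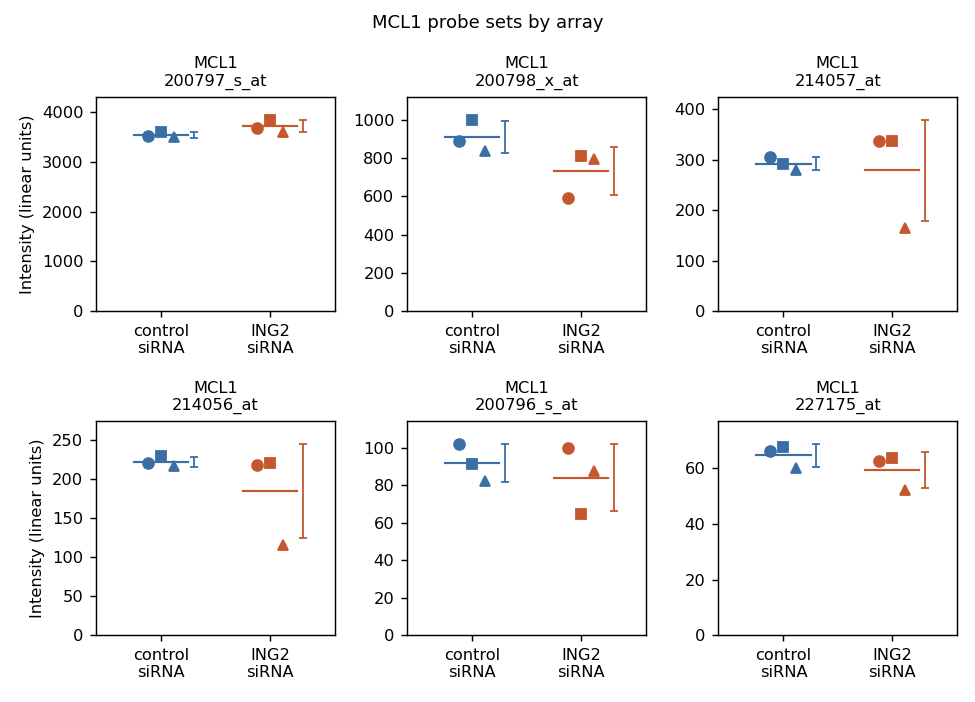
Deposited intensity on a linear scale (y axis, from 0) of the 6 MCL1 probe sets on each array, with circles, squares and triangles for replicates 1, 2 and 3, horizontal lines for group means and error bars for the SD (n = 3). ING2 siRNA sample 3 (triangle) is low for 214057_at (164 units) and 214056_at (116 units), and the brightest probe set, 200797_s_at, shows 3491 to 3597 units in controls and 3606 to 3846 after ING2 siRNA.

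BCL2L1 encodes BCL-XL and, by a different splice site, the shorter death-promoting BCL-XS. Its 4 probe sets split into a pair that fell and a pair that did not pass. Probe set 206665_s_at read 339.9, 344 and 329 units in controls 1 to 3 and 225, 215 and 216 units in ING2 siRNA samples 1 to 3. The groups lay far apart relative to their spread. The level was 64.7% of control (log2 change -0.63, SE 0.08, 95% interval -0.81 to -0.45, limma adjusted p = 0.0062), and it passed in each of the 6 fits that left out 1 array (adjusted p from 0.0116 to 0.0449).

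Probe set 215037_s_at read 279.6, 313 and 262 units in controls and 205, 213 and 219 units after ING2 siRNA. The groups did not overlap, and the level was 74.7% of control (log2 change -0.42, SE 0.09, limma adjusted p = 0.0383). It had adjusted p = 0.0515 after quantile normalization and passed in 1 of the 6 fits without 1 array, the one without control 1 (0.0455). Without control 2 it was 0.128, without control 3 0.076, and without ING2 siRNA samples 1, 2 and 3 it was 0.116, 0.0542 and 0.118.

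The brightest BCL2L1 probe set, 212312_at, read 3317, 3072 and 3008 units in controls and 3198, 3298 and 3472 units after ING2 siRNA. These groups overlap, and the log2 change was 0.09 (95% interval -0.11 to 0.28, adjusted p = 0.533). The fourth, 231228_at, read 148 to 201 units in controls and 179 to 203 units after ING2 siRNA (0.09, adjusted p = 0.634). No overall direction can therefore be given for BCL2L1 mRNA.

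The split within BCL2L1 was tested directly, by a test added after these values were seen. For every gene, the log2 ratio of each other probe set to the brightest was taken within each array and compared between the groups in limma. Of 21314 such ratios 0.202% were called. The ratio of 206665_s_at to 212312_at fell by 0.71 (95% interval -0.95 to -0.48, limma adjusted p = 0.0486), and that of 215037_s_at had a value of -0.51 (adjusted p = 0.0763). After cyclic loess both passed (adjusted p = 0.0284 and 0.0434), as after quantile normalization (0.0293 and 0.0477). Without control 2 or 3, or without ING2 siRNA sample 1, 2 or 3, the ratio of 206665_s_at did not pass (adjusted p = 0.13, 0.212, 0.17, 0.0823 and 0.212), with values from -0.76 to -0.67 over all 6 fits. Of the 21 ratios of the family, 20 did not pass, and after 215037_s_at the largest value was that of the MCL1 probe set 214056_at (-0.40, adjusted p = 0.352). That value was -0.11 without ING2 siRNA sample 3. By adjusted p the next after 215037_s_at was the BID probe set 204493_at (-0.37, 95% interval -0.59 to -0.15, limma adjusted p = 0.107), whose groups did not overlap. Where each probe set lies in the transcripts was not analysed here.

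**Figure D4:**
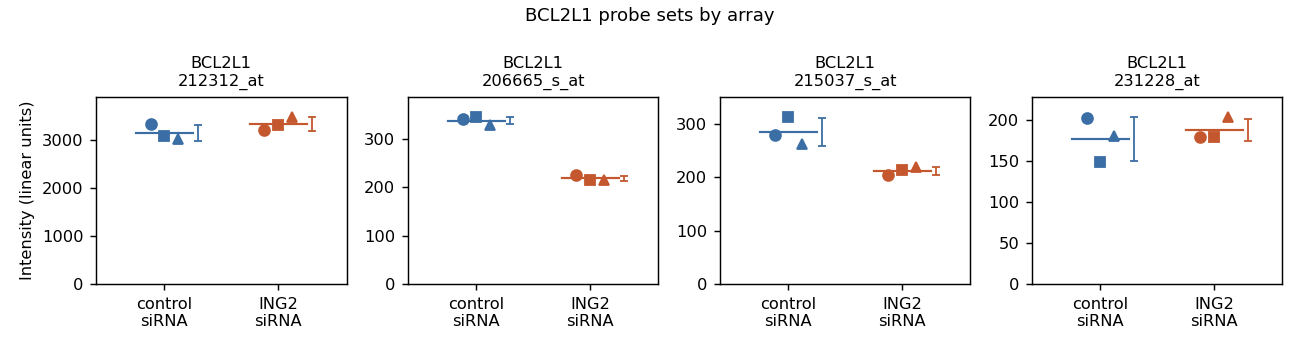
Deposited intensity on a linear scale (y axis, from 0) of the 4 BCL2L1 probe sets on each array, with circles, squares and triangles for replicates 1, 2 and 3, horizontal lines for group means and error bars for the SD (n = 3). For 206665_s_at and 215037_s_at every ING2 siRNA sample lies below every control, and for 212312_at and 231228_at the groups overlap.

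BCL2, the founding pro-survival member, had 4 probe sets and none passed. The brightest, 207004_at, read 164, 159.7 and 159 units in controls and 182, 143 and 160.01 units after ING2 siRNA, with overlap and a log2 change of 0.00077 (95% interval -0.23 to 0.23). Probe set 203684_s_at had 0.25 (adjusted p = 0.174), 207005_s_at -0.01 and 203685_at -0.13, each with overlapping groups. BCL2 therefore showed values on both sides of 0 and no change that passed.

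The effectors did not pass either. For BAX, 211833_s_at read 718, 565 and 659.5 units in controls and 548, 655 and 581 units after ING2 siRNA, which overlap (log2 change -0.12, 95% interval -0.37 to 0.13). Its other probe set, 208478_s_at, read 408, 341 and 324 units in controls and 314, 312 and 294 units after ING2 siRNA, without overlap (-0.22, 95% interval -0.45 to 0.02, adjusted p = 0.206). BAK1, by its single probe set 203728_at, read 707, 651 and 703 units in controls and 716, 735 and 693 units after ING2 siRNA (0.06, 95% interval -0.13 to 0.25), and its value was -0.01 after median centring. The intervals bound any change in BAK1 more narrowly than in BAX.

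Changes in these arrays moved with intensity, so each family value was set beside all probe sets of like intensity. With all probe sets in 10 equal bins by mean intensity, the median log2 change was -0.0993 in the brightest bin and 0.123 in bin 3 from the dim end. PMAIP1 lies in the brightest bin, where the 5th percentile was -0.506, and both of its probe sets (-0.62 and -0.59) lay below it. BMF and the BCL2L1 probe sets that fell lie in bin 8, with a median of -0.0174, a 5th percentile of -0.559 and a 95th of 0.299. BMF (0.39) lay above that range and 206665_s_at (-0.63) below it, while 215037_s_at (-0.42) lay within. The BCL2L11 value of 0.21 stood beside a median of -0.0715 at its intensity (bin 9). It lay within the 5th to 95th percentile range of that bin, -0.575 to 0.278. BMF thus rose in an intensity class whose median (-0.0174) was near no change.

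**Figure D5:**
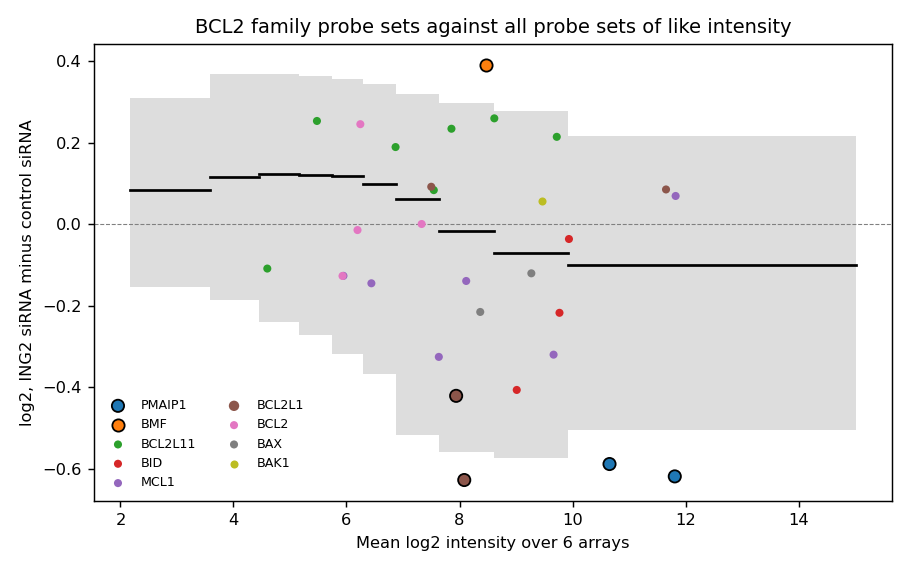
Log2 change (y axis, ING2 siRNA minus control siRNA) against mean log2 intensity over the 6 arrays (x axis) for the 30 BCL2 family probe sets, coloured by gene, with large outlined points for those that passed. Black lines are medians and grey bands the 5th to 95th percentiles of all probe sets in 10 equal bins of intensity; both PMAIP1 points (-0.62 and -0.59), BMF (0.39) and 1 BCL2L1 point (-0.63) lie outside the band.

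Other genes of the pathway were read from lists, 1 probe set per gene. Among 17 further genes of the BCL2 family or named for binding it, 1 fell and none rose, with a median log2 change of -0.04 against 0.06 over all genes. This median and those of the next 3 lists were not matched for intensity. Among all genes 8.29% were called and 4.67% were lower, so the counts of 1 of 17 here and of 1 of 15, 1 of 12 and 0 of 24 in the next 3 lists lie near or below that background. The one that fell was BECN1, an autophagy protein with a BH3 region that BCL2 and BCL-XL hold (-0.51, SE 0.09, limma adjusted p = 0.0225). Of its 3 probe sets 2 fell and the dim 1561652_at did not pass (0.30). With the mean of its probe sets BECN1 had -0.24 and an adjusted p of 0.0557.

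Downstream, 1 of 15 measured genes of the mitochondrial step and apoptosome fell and none rose, with a median of -0.15. XIAP, which inhibits the executioner caspases, fell (-0.60, SE 0.14, limma adjusted p = 0.0381). All 7 XIAP probe sets had values below 0, from -0.66 to -0.04, and 1 of them passed over all probe sets. XIAP did not pass after quantile normalization (adjusted p = 0.059), cyclic loess (0.0598) or when read by the probe set with the widest interquartile range (0.122).

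In the death receptor input to BID, 1 of 12 measured genes fell and none rose, with a median of -0.09. This was CASP8, the protease that cleaves BID (-0.44, SE 0.10, limma adjusted p = 0.0349). Of its 3 probe sets 2 had values below 0 and the other had 0.12. CASP8 did not pass after quantile normalization (adjusted p = 0.0618), cyclic loess (0.0517) or with the mean of its probe sets (-0.20, 0.111).

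None of 24 measured regulators and partners of the family was called in limma, with 6 of the 24 at an unadjusted p under 0.05, against 32.9% of all genes, and a median of -0.03. The smallest p belonged to MARCHF5, a mitochondrial ubiquitin ligase that acts on MCL1 and NOXA complexes (-0.29, SE 0.08, adjusted p = 0.0518), and then to the splicing factor PTBP1 (0.22, SE 0.08, adjusted p = 0.0909). The other 3 of the 27 listed, the p53 gene among them, were not analysed here. BECN1, XIAP and CASP8 each lost the call without control 2 or 3 or ING2 siRNA sample 1 or 3, with adjusted p up to 0.117, 0.128 and 0.131. Their log2 changes when each array was left out in turn ran from -0.59 to -0.45 for BECN1, from -0.73 to -0.43 for XIAP and from -0.52 to -0.34 for CASP8. The fits in which these genes lost the call were those that called only 2 or 3 of all 19777 genes. In bulk RNA of this kind, fewer cells expressing a gene and less RNA per cell cannot be told apart.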

How the data were processed

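Biotinylated cRNA made from total RNA was read on 3' expression arrays of the whole genome, per the labels' protocols. The authors deposited 1 intensity value per probe set and array, on a linear scale. The submitters' processing notes name RMA and R 2.12. Beyond that name, how background was corrected, which filters applied and how values became linear is not stated there or in the labels. Medians (75.6 to 81.4 units) and log2 interquartile ranges (3.113 to 3.377) differed between the arrays. The deposited values thus do not have the shared distribution that quantile normalization gives. Of 54675 probe sets 62 were controls. Through a platform annotation, with symbols updated from a RefSeq table (GRCh38.p14, names only), 41091 named 1 gene, 1801 several and 11721 none.

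The log2 of each value was taken with no pseudocount. ING2 siRNA was compared with control siRNA in limma 3.58.1 (lmFit and eBayes, R 4.3.3, no covariate), on all probe sets and on genes by their brightest single-gene probe set, with Benjamini-Hochberg adjustment over all features of each fit and a threshold of 0.05. Single values per array were compared with exact permutation tests. The fit was tested on simulated data. Named genes are the members, ING2, and in each list the called genes or, with none, the 2 of smallest p. The members and lists were chosen with earlier results of these data known. Alternatives were 3 scalings, a pseudocount of 16, leaving out dim probe sets, an intensity trend, array weights, a replicate block, other rules for the probe set of a gene, and leaving out each array. Promoter windows are from the RefSeq table used here, which gave windows for 9 of the 10 genes and none for MCL1. Protein sequences were not analysed here.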

Additional observations from a re-analysis of the deposited data

How the results depend on the processing

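ING2 passed under every alternative run, with log2 changes from -3.07 to -2.23. PMAIP1 and BMF, read by 1 probe set per gene, kept their direction and their call under each of the 10 alternatives other than leaving out an array (log2 changes from -0.69 to -0.49 and from 0.32 to 0.47). Not all of these alternatives could move the log2 change. BMF has 1 probe set, so other rules for the probe set leave it at 0.39. The widest interquartile range takes the same PMAIP1 probe set (-0.62). An intensity trend, a replicate block and leaving out dim probe sets alter only the p-values of both genes.

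The number of family genes called went from 2 to 4 when genes were read by the probe set with the widest interquartile range (IQR), and was 0 to 2 over the 6 fits without 1 array. That range was taken over all 6 arrays together. It therefore favours probe sets that differ between the groups, and a rise in calls with it is partly built in. The number of family probe sets called went from 5 to 3 after quantile normalization and was 2 to 5 without 1 array. The count of ratios within family genes was 2 after quantile normalization and 2 after cyclic loess, against 1, and 0 to 1 without 1 array. Among further BCL2 family genes, 1 call became 2 with an intensity trend, 3 with array weights, 2 with the mean of probe sets and 4 with the widest IQR, and 0 to 3 without 1 array. For the apoptosome list, 1 call became 0 after quantile normalization or cyclic loess, 2 without dim probe sets, with a trend or with array weights, and 3 with the mean of probe sets, and 0 to 2 without 1 array. For the death receptor list, 1 call became 0 after quantile normalization or cyclic loess, 2 with array weights or the mean of probe sets and 5 with the widest IQR, and 0 to 1 without 1 array. For the regulators, 0 calls became 1 after median centring, cyclic loess, a pseudocount of 16 or leaving out dim probe sets, 2 after quantile normalization, with a trend or with array weights, and 3 with the widest IQR, and stayed at 0 without 1 array. Over all genes, 1640 calls became 3858 with array weights, 2620 with the mean of probe sets and 3260 with the widest IQR, and 2 to 2613 without 1 array. Over all probe sets, 2886 became 6048 with array weights and 218 to 3845 without 1 array. Of the gene calls 716 were higher and 924 lower, and after median centring 263 and 1445. How much of the rise with the widest IQR is built in was not tested, nor was the cause of the other shifts.

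Values near 0 changed sign. BCL2 had -0.070 after median centring, -0.037 after cyclic loess and -0.0025 with array weights, and -0.086 to 0.084 without 1 array. Its probe set 207005_s_at had 0.025 with array weights and -0.082 to 0.040 without 1 array. BCL2L1 had -0.22 with the mean of its probe sets and -0.63 with the one of widest IQR, another probe set by construction. MCL1 had -0.16 with the mean of its probe sets and -0.14 with the widest IQR. BCL2L11 had -0.11 with the widest IQR. BAK1 had -0.013 and the MCL1 probe set 200797_s_at -0.0012 after median centring. BID had 0.080 after quantile normalization and 0.053 after cyclic loess, and -0.085 to 0.039 without 1 array. Without 1 array, 208536_s_at ranged from -0.27 to 0.010, 214057_at from -0.31 to 0.21, 200796_s_at from -0.28 to 0.032 and 231228_at from -0.028 to 0.19.

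Deviations from the group mean, over genes, correlated by 0.263 and 0.291 between samples of replicate number 1 and of number 2. For number 3 the correlation was -0.019. Control 1 with ING2 siRNA sample 2 gave -0.311, and control 2 with ING2 siRNA sample 1 gave -0.251. Not every sample correlated best with its own number. The main fit did not pair the samples by number, and whether such a pairing exists was not tested. With the replicate number as a block, 3508 genes and 4549 probe sets were called, with 3 further BCL2 family genes, 2 apoptosome genes, 3 death receptor genes and 1 regulator.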
